A study of Mus musculus with 4 samples.

Results

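Wnt ligands are secreted signaling proteins that act between neighboring cells. The 10 Wnt ligand genes described here, Wnt4, Wnt5a, Wnt5b, Wnt6, Wnt7a, Wnt7b, Wnt9a, Wnt10a, Wnt10b and Wnt11, were taken by gene symbol from a table of 54446 mouse genes. All 10 were found, and all 10 had a level above 0 in all 4 libraries. The table holds 9 further Wnt genes, which were at or close to 0.

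A Wnt protein receives a fatty acid on a conserved serine from the acyltransferase Porcn, is carried to the cell surface by the cargo receptor Wls, and binds a Frizzled receptor. With the co-receptors Lrp5 and Lrp6 it stabilizes β-catenin, the canonical branch, whereas binding with Ror or Ryk receptors drives β-catenin-independent signaling such as planar cell polarity. In the mammary gland, Wnt4 is known as the progesterone-induced paracrine signal of hormone-sensing luminal cells, Wnt10b and Wnt10a are linked to the embryonic mammary bud, and Wnt5a is known for restraining ductal growth.

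RNA was sequenced from mammary gland cells of wild type C57BL/6 mice, females according to the methods, and how many animals stand behind a library is not given in the sources used here. The cells were sorted by FACS as basal cells, the outer contractile layer of the duct, or luminal cells, the inner layer, and grown in 3D culture in growth factor-reduced Matrigel with insulin, transferrin, selenium and EGF in the medium. The medium held DMSO as the vehicle control or 100 μM baicalin, a flavone glucuronide from the root of Scutellaria baicalensis. Each of the 4 groups (basal cell with DMSO, basal cell with baicalin, luminal cell with DMSO, luminal cell with baicalin) has 1 library, so there are no replicates, no difference between groups could be tested and no p-value is given. Levels are FPKM, the number of fragments divided by exon length and by library depth, so that genes of different length can be set side by side.

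The basal markers and the general luminal markers went against the cell labels. The basal keratin Krt5 was at 128 and 3.01 FPKM in the libraries labelled basal with DMSO and baicalin, and at 2015 and 2415 FPKM in those labelled luminal. The smooth muscle actin Acta2, a myoepithelial gene, was at 7.66, 3.49, 555 and 417 FPKM in the same order, and the luminal keratin Krt8 was at 1573, 754, 383 and 324 FPKM. Over 10 basal markers the summed level was 1639, 426, 5052 and 6063 FPKM, and over 10 luminal markers it was 4519, 3124, 1444 and 1249 FPKM. In the DMSO libraries, all 9 basal markers with a level above 0 in every library were higher under the label luminal, and all 10 luminal markers were lower. Markers of hormone-sensing luminal cells were mixed: of 9 above 0 in every library, 5 were higher under the label luminal with DMSO, among them Pgr (1.08 against 4.81 FPKM) and Foxa1 (1.8 against 9.3 FPKM), and 4 were lower. The libraries are therefore named by their labels only ("labelled basal", "labelled luminal"), and no direction between them is read as a difference between basal and luminal cells. Fibroblast markers summed to 3.16 to 17.2 FPKM, endothelial markers to 1.79 to 7.01 FPKM, and immune markers to 6.01 to 54.5 FPKM. Most of the immune sum was Cd68 (7.49, 51.5, 4.44 and 13.7 FPKM) and Lyz2 (8.84, 2.17, 0.903 and 2.61 FPKM). The macrophage and myeloid genes Adgre1, Csf1r and Itgam of the same list did not exceed 0.0449, 0.34 and 0.01 FPKM. The pan-leukocyte gene Ptprc was at 0 to 0.0138 FPKM. Between 19356058 and 20648773 fragments lay behind each library, and for 1 kb of exon sequence a single fragment equalled 0.0484 to 0.0517 FPKM. Ratios are given with a 95% interval by the exact Clopper-Pearson method, computed from the fragments behind both values. They cover counting error only and hold nothing of the spread between cultures or animals, which 1 library per group cannot show.

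The coding sequence around the serine that carries the fatty acid is shown because it is the feature these ligands share. The serine lies in the run Cys-His-Gly-x-Ser-Gly, where x is any residue. The following 30 bases were read from GENCODE transcripts on GRCm38, 5′ to 3′ on the coding strand, with the serine codon in capitals. They were read for the 7 of 10 ligands that also had an entry in the set of RefSeq promoters used here. The sites of Wnt5a, Wnt7b and Wnt10a were not sought.
Wnt4, chr4:137296345-137296374, plus strand, exon 5: tgtcacggggtgTCGggctcctgcgaggta
Wnt5b, chr6:119433794-119433823, minus strand, exon 5: tgtcacggagtcTCCgggtcctgcagcctc
Wnt6, chr1:74784172-74784201, plus strand, exon 4: tgccatgggcttTCGggttcctgcgctctg
Wnt7a, chr6:91366266-91366295, minus strand, exon 4: tgccatggtgtgTCAggctcctgtaccact
Wnt9a, chr11:59330926-59330955, plus strand, exon 4: tgccatggtgtgTCTggctcctgcaccgtg
Wnt10b, chr15:98772872-98772901, minus strand, exon 4: tgccatggaacgTCAggcagctgccaattc
Wnt11, chr7:98850260-98850289, plus strand, exon 6: tgccatggggtgTCTggctcctgctccatc
Each site lay within 1 coding exon. Wnt9a and Wnt11 shared 26 of the 30 bases and Wnt7a and Wnt9a shared 25, and the pairs least alike, Wnt10b with Wnt5b and with Wnt6, shared 17. The serine is written with 4 different codons in the 7 sequences.

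The order of the ligands differed between the labels. In the library labelled basal with DMSO, Wnt7b came first with 43.8 FPKM, followed by Wnt5b with 10.9 and Wnt9a with 5.52, and each of these exceeded the next beyond counting error. With baicalin the first 3 were the same, Wnt7b at 47.9, Wnt5b at 14.9 and Wnt9a at 7.82 FPKM, with Wnt7a next at 6.25. In the library labelled luminal with DMSO, Wnt5a came first with 8.37 FPKM, ahead of Wnt7b with 4.39. Wnt7b and Wnt10a (4 FPKM) there did not differ beyond counting error, nor did Wnt10a and Wnt5b (3.72 FPKM). With baicalin, Wnt5a was first with 19.4 FPKM, Wnt10a followed with 8.63, and then Wnt7b with 7.05. Wnt6 was last in all but the library labelled luminal with DMSO, where Wnt7a was last at 0.163 FPKM, from 10 fragments.

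**Figure D1:**
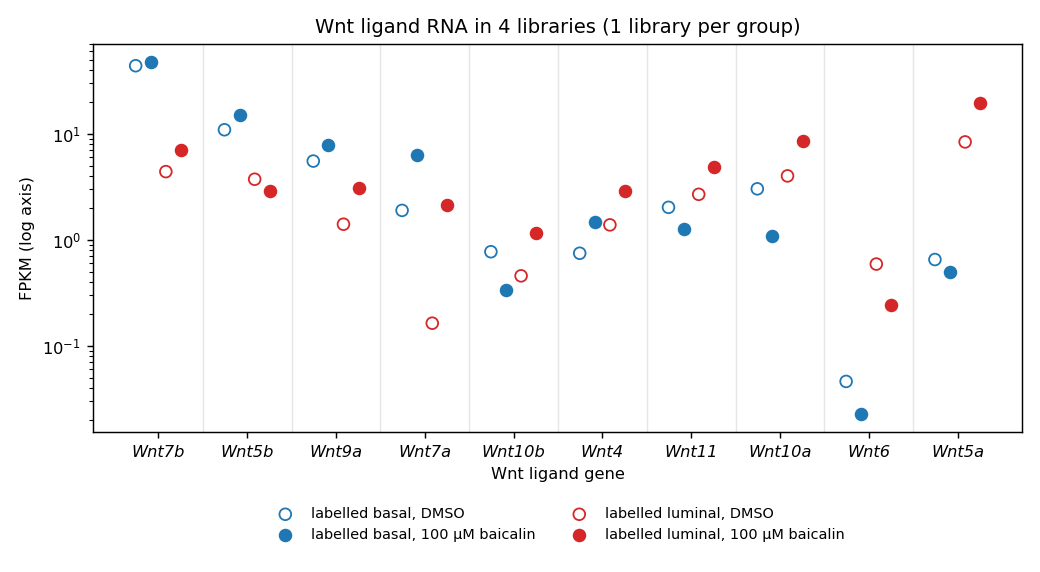
FPKM of the 10 Wnt ligand genes on a log axis, 1 point per library; blue is labelled basal, red labelled luminal, open points DMSO and filled points 100 μM baicalin. Wnt7b, Wnt5b, Wnt9a and Wnt7a lie higher in blue within each treatment (Wnt7b 43.8 and 47.9 against 4.39 and 7.05 FPKM), and Wnt5a lies highest in red (8.37 and 19.4 against 0.65 and 0.498 FPKM). There are no replicates and so no error bars.

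Summed over the 10 ligands, the level was 69.4 FPKM with DMSO and 81.5 FPKM with baicalin in the libraries labelled basal, and 27.1 and 52.3 FPKM in those labelled luminal. The sum was 1.17 times as high with baicalin under the label basal and 1.93 times under the label luminal. Wnt7b alone made up 63.1% and 58.8% of the sum in the libraries labelled basal, but 16.2% and 13.5% in those labelled luminal. Wnt5a made up 0.937% and 0.611%, against 30.8% and 37.1%. Without Wnt7b, the other 9 ligands summed to 25.6, 33.6, 22.8 and 45.3 FPKM in the order basal DMSO, basal baicalin, luminal DMSO, luminal baicalin, so the lower total under the label luminal with DMSO was for the most part Wnt7b.

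**Figure D2:**
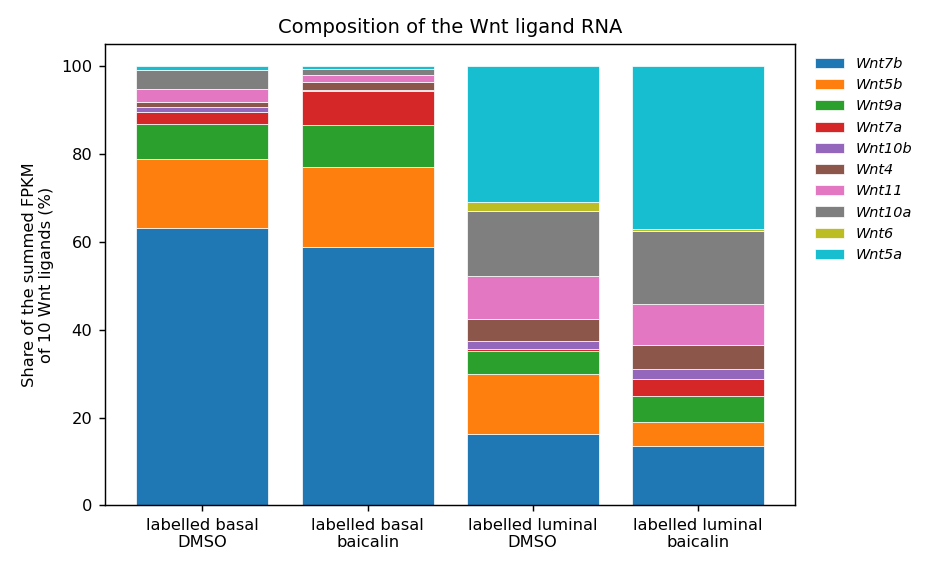
Share of each ligand in the summed FPKM of the 10 ligands, in percent, 1 bar per library, each bar adding to 100%. Wnt7b takes 63.1% and 58.8% of the bars labelled basal, and Wnt5a takes 30.8% and 37.1% of those labelled luminal.

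Wnt7b, Wnt5b, Wnt9a and Wnt7a, grouped after their values were seen, were higher under the label basal with either treatment. Together they held 89.6% and 94.3% of the ligand sum in the libraries labelled basal, and 35.6% and 28.8% in those labelled luminal. Wnt7b (chr15:85535437-85582473, minus strand, GRCm38, as all gene positions here), a ligand of lung and kidney development, was 9.98 times as high under the label basal as under luminal with DMSO (interval 9.03 to 11.1) and 6.8 times with baicalin (6.28 to 7.36). These ratios rest on 4260 against 416 fragments and on 4761 against 713. Wnt5b (chr6:119432531-119544347, minus strand), a mostly β-catenin-independent ligand, was at 10.9 against 3.72 FPKM with DMSO and at 14.9 against 2.85 FPKM with baicalin, which is 2.94 (2.49 to 3.48) and 5.22 (4.39 to 6.24) times as high. Wnt9a (chr11:59306928-59333552, plus strand), known from joint and limb development, was at 5.52 against 1.4 FPKM with DMSO and at 7.82 against 3.08 FPKM with baicalin. Its ratios were 3.95 (3.13 to 5.04) and 2.54 (2.16 to 2.99).

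Wnt7a (chr6:91363981-91411363, minus strand), a ligand of limb and female reproductive tract development, was at 1.89 FPKM under the label basal and 0.163 FPKM under luminal with DMSO, 119 against 10 fragments. It was 11.6 times as high under the label basal (6.09 to 24.8). With baicalin the levels were 6.25 and 2.11 FPKM and the ratio was 2.97 (2.44 to 3.62). The library labelled luminal with baicalin and the one labelled basal with DMSO differed by 1.11 times for Wnt7a, with an interval of 0.866 to 1.44 that includes 1.

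Wnt5a (chr14:28504750-28527448, plus strand), the prototype of the β-catenin-independent ligands, differed most in the other direction. It was at 8.37 FPKM under the label luminal and 0.65 FPKM under basal with DMSO, 12.9 times as high (10.5 to 15.9), and at 19.4 and 0.498 FPKM with baicalin, 39.1 times as high (31.2 to 49.5). Wnt5a is a gene that mesenchymal cells also use. Of 10 fibroblast markers, 4 were higher under the label luminal with DMSO and 9 with baicalin, and their summed level was 8.03, 3.16, 17.2 and 14 FPKM in the order basal DMSO, basal baicalin, luminal DMSO, luminal baicalin. The collagen genes that define fibroblasts were low in all 4 libraries, with Col1a1 at 0.841 to 2.74 FPKM and Col3a1 at 0.281 to 1.07 FPKM, whereas Fbln1, at 0.277, 0.0113, 5.5 and 3.67 FPKM in that order, and Pdgfra, at 0.593, 0.63, 6.3 and 1.67 FPKM, were higher under the label luminal with either treatment, as Wnt5a was. The part of fibroblasts in the Wnt5a level was not tested. As in any bulk library, fewer cells that make a ligand and less RNA of it per cell cannot be told apart.

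Wnt10a (chr1:74791516-74804179, plus strand) and Wnt11 (chr7:98835112-98855195, plus strand) were close between the labels with DMSO and apart with baicalin. Wnt10a, a β-catenin ligand of skin appendages and the mammary bud, was at 3.02 FPKM labelled basal and 4 FPKM labelled luminal with DMSO (ratio 1.32, 1.06 to 1.65), and at 1.08 and 8.63 FPKM with baicalin (ratio 8, 6.02 to 10.8). Wnt11, a β-catenin-independent ligand of branching and cell movements, was at 2.02 and 2.68 FPKM with DMSO (ratio 1.33, 1.08 to 1.64), and at 1.25 and 4.87 FPKM with baicalin (ratio 3.89, 3.13 to 4.87). Wnt5a, Wnt10a and Wnt11 together made up 8.2% and 3.47% of the ligand sum in the libraries labelled basal and 55.5% and 62.9% in those labelled luminal. These ligands too were grouped after their values were seen, so the contrast follows from the choice. Wnt4 and Wnt6, also higher under the label luminal with either treatment, were left out.

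The remaining 3 ligands did not exceed 2.91 FPKM in a library. Wnt4 (chr4:137277489-137299726, plus strand) was at 0.745 against 1.38 FPKM with DMSO and 1.48 against 2.91 FPKM with baicalin, 1.85 (1.35 to 2.57) and 1.96 (1.58 to 2.45) times as high under the label luminal. Wnt10b (chr15:98770712-98778150, minus strand), a β-catenin ligand of the mammary bud, was 0.592 times as high under luminal as under basal with DMSO (0.364 to 0.945) and 3.46 times with baicalin (2.15 to 5.76), so that its direction differed between the treatments. Wnt6 (chr1:74771892-74785322, plus strand), an epithelial ligand of development, had 2, 1, 25 and 11 fragments in the order basal DMSO, basal baicalin, luminal DMSO, luminal baicalin. The luminal to basal ratio of Wnt6 was 12.8 with DMSO, with an interval from 3.2 to 112, and 10.8 with baicalin (1.57 to 465).

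Changes of all genes were computed as log2 of the ratio of FPKM + 1, which keeps near-zero genes from dominating and understates the change of low genes. In this scale, between the labels with DMSO, 1 ligand lay more than 1 higher under luminal (Wnt5a, 2.51) and 4 lay more than 1 lower (Wnt7b -3.06, Wnt9a -1.44, Wnt5b -1.34, Wnt7a -1.31). Of the 17787 genes above 0 FPKM in all 4 libraries, 4.71% were past 1 in the higher direction and 3.86% in the lower. With baicalin, 3 ligands were past 1 higher (Wnt5a 3.77, Wnt10a 2.21, Wnt11 1.38) and the same 4 were past 1 lower, Wnt7b by -2.6, Wnt5b by -2.04, Wnt7a by -1.22 and Wnt9a by -1.11, beside 5.24% and 2.99% of all genes. The ligands' median difference was 0.0 with DMSO and 0.47 with baicalin, and that of all genes was 0.01 and -0.03, since ligands far above and far below 0 stood side by side.

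The second question of the design was how baicalin changed the levels within each label. Wnt7a, Wnt4 and Wnt9a were the ligands that were higher with baicalin by at least 1.42 times under both labels. That cut is the ratio of Wnt9a under the label basal and was set after the values were seen. Wnt7a went from 1.89 to 6.25 FPKM in the libraries labelled basal, 3.31 times (2.69 to 4.09), and from 0.163 to 2.11 FPKM in those labelled luminal, 12.9 times (6.83 to 27.6). The larger ratio has a DMSO value of 10 fragments below it, and as log2 of FPKM + 1 the changes were 1.33 and 1.42. Wnt4 went from 0.745 to 1.48 FPKM, 1.99 times (1.46 to 2.74), and from 1.38 to 2.91 FPKM, 2.11 times (1.68 to 2.66). The progesterone receptor gene Pgr, whose product is known to induce Wnt4, was at 1.08 and 0.911 FPKM with DMSO and baicalin in the libraries labelled basal and at 4.81 and 2.09 FPKM in those labelled luminal. The part of Pgr in the Wnt4 level was not tested. Wnt9a was 1.42 (1.24 to 1.62) and 2.21 (1.72 to 2.86) times as high with baicalin.

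Wnt7b was also higher with baicalin under both labels, by less. Its ratio was 1.09 (1.05 to 1.14) in the libraries labelled basal and 1.61 (1.42 to 1.82) in those labelled luminal.

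**Figure D3:**
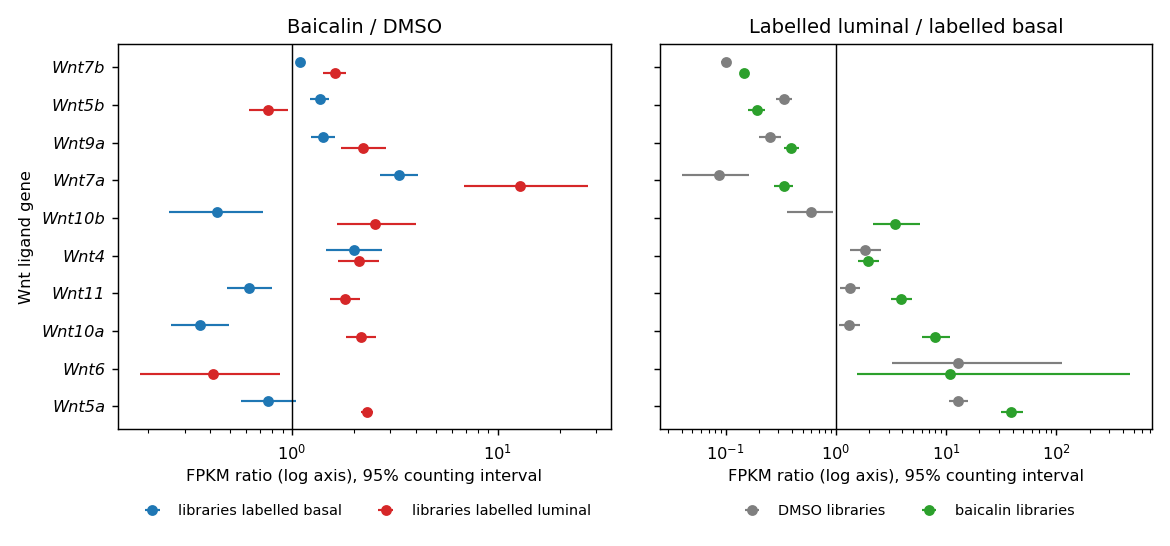
FPKM ratios of each ligand on log axes with 95% counting intervals; left, baicalin over DMSO for the libraries labelled basal (blue) and luminal (red); right, labelled luminal over labelled basal with DMSO (gray) and baicalin (green). Wnt7a lies right of 1 for both labels at left (3.31 and 12.9), Wnt10a, Wnt10b and Wnt11 lie on opposite sides of 1, and at right Wnt7b is lowest among the baicalin libraries (0.147) and Wnt5a highest (39.1). Wnt6 is not drawn for the libraries labelled basal, which had 2 and 1 fragments.

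Wnt10a, Wnt10b and Wnt11 were lower with baicalin under the label basal and higher under the label luminal. Wnt10a went from 3.02 to 1.08 FPKM (148 to 54 fragments), 0.357 times (0.257 to 0.491), and from 4 to 8.63 FPKM (191 to 440 fragments), 2.16 times (1.82 to 2.57). Wnt10b went from 0.77 to 0.333 FPKM, 0.433 times (0.253 to 0.72), and from 0.456 to 1.15 FPKM, 2.53 times (1.65 to 3.99). Wnt11 went from 2.02 to 1.25 FPKM, 0.619 times (0.48 to 0.795), and from 2.68 to 4.87 FPKM, 1.81 times (1.53 to 2.15). In the libraries labelled basal, basal markers were lower with baicalin as well, in sum from 1639 to 426 FPKM, with Krt5 from 128 to 3.01 and the basal transcription factor Trp63 from 6.01 to 0.305 FPKM. Luminal markers were lower there too, in sum from 4519 to 3124 FPKM (7 of 10 lower), as were alveolar markers, from 273 to 155 FPKM (6 of 6), and fibroblast markers, from 8.03 to 3.16 FPKM (9 of 10). In the libraries labelled luminal the basal marker sum went from 5052 to 6063 FPKM, carried by Krt5 and Krt14, and Trp63 from 25.2 to 27 FPKM, but 5 of 9 basal markers were lower, with Acta2 from 555 to 417, Tagln from 97.6 to 47.2 and Oxtr from 19.4 to 3.61 FPKM. The part of these markers' cells in the ligand values was not tested.

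Wnt5a and Wnt5b, a pair of close relatives, went in different directions. Wnt5a was 2.32 times as high with baicalin in the libraries labelled luminal (2.17 to 2.48), from 1268 to 3141 fragments, while in those labelled basal the ratio was 0.766 with an interval of 0.563 to 1.04 that includes 1. Wnt5b was 1.36 times as high (1.22 to 1.52) under the label basal and 0.766 times (0.616 to 0.951) under the label luminal. Wnt6 was at 0.589 and 0.243 FPKM under the label luminal, 0.412 times with baicalin (0.183 to 0.869), and under the label basal both libraries were at or below 3 fragments, so no ratio is given.

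In the libraries labelled basal, 5 of the 10 ligands were higher with baicalin, as were 50.9% of all genes. Past 1 on the log2 scale there was 1 higher ligand, Wnt7a, and 0 lower, beside 2.15% and 3.33% of all genes, and Wnt10a stood just inside at -0.95. In the libraries labelled luminal, 8 of the 10 were higher, as were 45.6% of all genes, and 2 were past 1 (Wnt7a 1.42, Wnt5a 1.12) with 0 lower, beside 2.37% and 1.59%. The ligands' median change was 0.05 under the label basal, where that of all genes was 0.01, and 0.69 under the label luminal, where that of all genes was -0.02. These counts depend on the 1 FPKM added: without it, 1 ligand was past 1 higher and 3 lower under the label basal, where 9.52% and 11.5% of all genes were, and 6 higher and 1 lower under the label luminal, where 8.76% and 8.64% were.

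The 250 bases before and 50 after the start of Wnt7a, Wnt4 and Wnt9a are shown. These ligands were higher with baicalin by at least 1.42 times under both labels, a cut set after the values were seen. They come from a set of RefSeq promoters, build GRCm38.p6. The set used here held 10 start sites for 7 of the 10 ligands. It had no entry for Wnt5a, Wnt7b and Wnt10a, which is a limit of the set. Each is written 5′ to 3′ along the gene, and capitals mark a match to 1 of the 4 motifs searched.
Wnt7a, chr6:91411304-91411603, minus strand: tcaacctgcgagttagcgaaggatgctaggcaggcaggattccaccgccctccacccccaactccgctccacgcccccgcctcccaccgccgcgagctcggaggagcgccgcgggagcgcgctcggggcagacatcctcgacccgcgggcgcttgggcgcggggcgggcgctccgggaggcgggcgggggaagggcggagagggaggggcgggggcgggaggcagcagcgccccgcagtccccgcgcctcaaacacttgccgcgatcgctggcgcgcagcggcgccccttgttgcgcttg
Wnt4, chr4:137277385-137277684, plus strand: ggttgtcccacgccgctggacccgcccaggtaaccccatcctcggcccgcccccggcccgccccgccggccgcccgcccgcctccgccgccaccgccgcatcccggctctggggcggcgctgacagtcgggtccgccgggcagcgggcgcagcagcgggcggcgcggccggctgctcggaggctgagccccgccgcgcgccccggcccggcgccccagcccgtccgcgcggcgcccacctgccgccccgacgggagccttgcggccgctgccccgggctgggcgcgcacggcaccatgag
Wnt9a, chr11:59306680-59306979, plus strand: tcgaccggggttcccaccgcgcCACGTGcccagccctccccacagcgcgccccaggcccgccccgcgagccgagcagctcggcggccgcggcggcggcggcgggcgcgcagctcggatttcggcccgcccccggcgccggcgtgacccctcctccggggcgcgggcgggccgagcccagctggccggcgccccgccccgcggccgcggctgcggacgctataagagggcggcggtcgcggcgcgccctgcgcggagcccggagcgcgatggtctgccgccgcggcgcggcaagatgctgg
The motifs, searched on both strands, were CTTTGAT for TCF/LEF factors, TGANTCA for AP-1, TGACNNNGC for the antioxidant response element and CACGTG for the E-box. They occur in 3.73%, 7.81%, 12.4% and 7.15% of 32851 mouse promoters of that length. The AP-1 and antioxidant motifs can overlap in sequence. The match in these promoters was 1 E-box in Wnt9a, 23 bases into the window. Of the other entries, 1 Wnt5b start held the AP-1 motif, another held the TCF/LEF and antioxidant motifs, and of 2 Wnt11 starts 1 held the TCF/LEF motif and the other the antioxidant motif. These windows were rich in G and C, at 76% for Wnt7a, 84.3% for Wnt4 and 83.3% for Wnt9a, against a median of 52.7% over all promoters. A match is a run of letters and not evidence of binding.

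Of the 9 other Wnt genes, Wnt2, Wnt3, Wnt3a, Wnt8a, Wnt8b and Wnt9b were at 0 in all 4 libraries, and Wnt1, Wnt2b and Wnt16 together did not exceed 0.116 FPKM in a library. Some of these lie beside expressed ligands. Wnt9a and the silent Wnt3a are 16175 bases apart on chromosome 11, and Wnt10b and Wnt1 are 11706 bases apart on chromosome 15. Wnt6 and Wnt10a, 6193 bases apart on the same strand of chromosome 1, both had RNA, but with baicalin under the label luminal Wnt6 was 0.412 and Wnt10a 2.16 times as high.

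Genes whose levels over the 4 libraries were most like those of Wnt5a and Wnt7b, the 2 ligands with the widest range, were sought among 8565 protein-coding genes with at least 5 FPKM in a library. Likeness was the root-mean-square difference of log2(FPKM + 1) after each gene was centered on its own mean. For Wnt5a, which spanned 3.77 on that scale, they were the glutamate transporter gene Slc1a3 (difference 0.15), the glutathione peroxidase gene Gpx2 (0.16) and Samd5 (0.185). For Wnt7b, which spanned 3.18, they were the chaperone gene clusterin (Clu, 0.109), ceruloplasmin (Cp, 0.172), a copper-binding ferroxidase, and the ciliogenesis factor Foxj1 (0.242). Clu was at 235, 285, 31.8 and 51.1 FPKM in the order basal DMSO, basal baicalin, luminal DMSO, luminal baicalin. With 4 libraries, a like profile is a description.

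The genes found of the list of Wnt processing and release were above 0 in all libraries. Notum was close to 0, with 16, 1, 5 and 1 fragments in the order basal DMSO, basal baicalin, luminal DMSO, luminal baicalin. Notum and Trabd2b inactivate Wnt proteins, so the counts over this list mix opposing roles. Porcn, the acyltransferase, was at 8.48 and 4.09 FPKM with DMSO and baicalin under the label basal, 0.483 times (0.413 to 0.563), and at 11.9 and 21.3 FPKM under the label luminal, 1.8 times (1.64 to 1.97). Wls, the carrier, was 0.832 (0.792 to 0.874) and 1.22 (1.17 to 1.27) times as high with baicalin. Both thus stood on opposite sides of 1 under the 2 labels, as Wnt10a, Wnt10b and Wnt11 did, and as 40.6% of all genes did. Tmed2 of the same list did so the other way round, at 1.06 and 0.911 times. Of the 8 listed genes 7 were found, of which 2 were higher under the label basal and 4 under the label luminal, with medians of -0.25 and 0.19. Of all genes, 50.9% and 45.6% were higher, and 2.15% and 2.37% were past 1 higher. Under each label 1 was past 1, Gpr137b, a lysosomal membrane protein that is no core part of Wnt release, at 11.1 and 79.6 FPKM labelled basal and 1.9 and 30.9 FPKM labelled luminal.

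Of 12 Frizzled receptors and co-receptors, 2 were higher with baicalin under the label basal and 4 under the label luminal, beside 50.9% and 45.6% of all genes, with medians of -0.18 and -0.21 (0.01 and -0.02 over all genes). Past 1 there were 0 under the label basal and 1 under the label luminal, Fzd9, which went from 1.42 to 0.106 FPKM. Of all genes, 1.59% were past 1 lower under the label luminal. Fzd7, a receptor of basal mammary cells, was at 37.8 and 19.1 FPKM labelled basal and 95.5 and 60.7 FPKM labelled luminal. Of 10 β-catenin-independent receptor and polarity genes, 3 were higher with baicalin under the label basal and 5 under the label luminal, with medians of -0.31 and -0.05. The shares of all genes that were higher are the 50.9% and 45.6% given above. Among them Ror1, a receptor for Wnt5a, was at 1.99 and 0.796 FPKM labelled basal and at 11.6 and 2.45 FPKM labelled luminal, where Wnt5a was higher with baicalin. Its relative Ror2 went the other way under the label luminal, from 1.45 to 4.25 FPKM, and Ror1 and Ror2 were the listed genes past 1 there, with 0 past it under the label basal. Among all genes, 2.37% were past 1 higher and 1.59% lower under the label luminal, and 2.15% and 3.33% under the label basal.

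R-spondins and their Lgr receptors raise the number of Frizzled receptors at the membrane. The list of this module had receptors but nearly no ligand. Rspo2 and Rspo4 were at 0 in all libraries, Rspo1 did not exceed 0.2 FPKM, and Rspo3 did not exceed 0.114. The receptor gene Lgr5 was at 0.398 and 0.024 FPKM labelled basal and at 17.7 and 1.93 FPKM labelled luminal, and Lgr4 was at 21.3 and 11.8, and 40.3 and 28.7 FPKM. Of the 6 module genes above 0 in every library, 4 were lower with baicalin under the label basal and 5 under the label luminal. Among the 6 are Znrf3 and Rnf43, which remove Frizzled receptors from the membrane, so these counts mix opposing roles. Of all genes, 50.9% and 45.6% were higher.

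Of 16 Wnt antagonists, 6 were above 0 FPKM in every library, and 5 of these were lower with baicalin under either label, with medians of -1.13 and -0.38. Of all genes, 50.9% and 45.6% were higher. Beside secreted proteins the list holds the membrane proteins Kremen1, Kremen2 and Apcdd1, and Kremen1 and Apcdd1 are among the 6. Past 1 there were 3 lower under the label basal and 1 under the label luminal, where 3.33% and 1.59% of all genes were. Wif1, which fell outside these 6, had 98 fragments (2.03 FPKM) with DMSO and 0 with baicalin under the label basal, and was at 5.17 and 3.57 FPKM under the label luminal. Dkk3 was at 15.2 and 1.79 FPKM labelled basal and 25.7 and 20.2 FPKM labelled luminal, and Sfrp1, which binds Wnt proteins, at 6.56 and 1.22, and 78.1 and 12.2 FPKM. Sostdc1, an antagonist that binds Lrp co-receptors, was at 2.15, 0.0277, 108 and 79.4 FPKM in the order basal DMSO, basal baicalin, luminal DMSO, luminal baicalin. Summed over the list, antagonists were at 32.1, 8.87, 228 and 125 FPKM in that order, beside 69.4, 81.5, 27.1 and 52.3 FPKM for the ligands.

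Of 23 genes that transduce β-catenin signals, 10 were higher with baicalin under the label basal and 8 under the label luminal, beside 50.9% and 45.6% of all genes. Of the 23, 0 were past 1, and the medians were -0.05 and -0.17. Among those with at least 5 FPKM in a library, the transcription factor genes Tcf7l1 (-0.83, labelled basal) and Tcf7 (-0.44, labelled luminal) had the largest differences; for Tcf7l1 the levels were 4.76 and 2.25 FPKM. Of 12 β-catenin target genes above 0 in every library, 4 were higher under the label basal and 6 under the label luminal, beside 50.9% and 45.6% of all genes. Under each label 2 were past 1 higher and 1 lower. For all genes the shares were 2.15% and 3.33% under the label basal, and 2.37% and 1.59% under the label luminal. The feedback gene Axin2, the most general target, was at 0.366 and 0.197 FPKM labelled basal (0.538 times, 0.305 to 0.928) and at 1.7 and 3.46 FPKM labelled luminal (2.04 times, 1.7 to 2.44). The feedback gene Nkd2 was at 43.1 and 9.61 FPKM labelled basal and at 93.8 and 111 FPKM labelled luminal. Procr, a receptor gene of mammary stem cells and known to respond to Wnt signals, was at 4.14 and 12.3 FPKM labelled basal and 2.19 and 11.8 FPKM labelled luminal, higher with baicalin under both. Myc was higher under both too, at 37.7 and 81.5, and 14.6 and 40.8 FPKM, whereas Lgr5 was lower under both, so the list had no single direction.

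**Figure D4:**
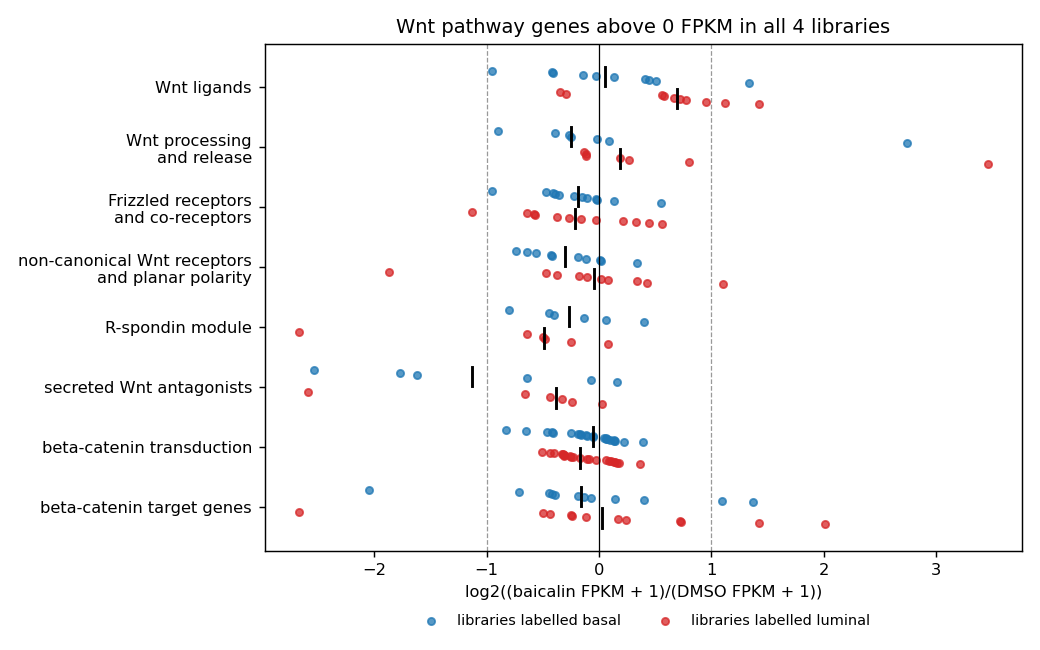
Change with baicalin, log2((baicalin FPKM + 1)/(DMSO FPKM + 1)), of genes above 0 FPKM in all 4 libraries, by list; blue, libraries labelled basal, red, labelled luminal; each point is 1 gene, black bars are medians and dashed lines mark changes of 1 and -1. The ligands' median is 0.05 in blue and 0.69 in red. That of the list drawn as secreted Wnt antagonists, which also holds the membrane proteins Kremen1 and Apcdd1, is -1.13 and -0.38.

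Some reads of 3 ligands could belong to a gene on the opposite strand, because how the counting treated strand is not given in the sources used here. Wnt5a shares 358 of 7823 exon bases with Gm2670, Wnt7b shares 324 of 4898 with AU022754, and Wnt11 shares 364 of 4137 with Gm8398. The partners were low, at 0 to 0.121, 0.126 to 0.451 and 0 to 0.133 FPKM.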

How the data were processed

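RNA of the 4 libraries was enriched with oligo (dT) beads and libraries were made with a stranded kit. According to the paper's methods, the authors aligned reads with HISAT2, counted fragments per gene of Ensembl 94 on GRCm38 with featureCounts 1.5.0, and deposited FPKM values. The submitters' processing notes instead name Bowtie 0.12.2 and the builds mm8 and GRCm38, so the aligner of these values is uncertain. Libraries of E2 + PG treatment are not analysed here.

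Exon lengths and positions came from GENCODE mouse 21, with a length for 54409 genes. FPKM times exon length fell on steps of 1 fragment (within 0.05 of a whole number for 98.4% to 98.6% of low values, and for 40 of 40 ligand values). This gave the fragments behind each value, used for exact 95% intervals and not for a count test. Log2 changes used a pseudocount of 1 FPKM and genes above 0 FPKM in all 4 libraries (17787), and a change counted past 1. No ratio was given where both libraries had at most 3 fragments. Samples were grouped by their labels. Beside the 10 ligands, each pathway list gave the gene with the largest change in each baicalin comparison and between the labels with DMSO, among those with at least 5 FPKM in a library. Other target, R-spondin and marker genes are given by value. Porcn, Wls, Notum, Trabd2b, Fzd9, Ror2, Wif1, Trp63, Tagln, Oxtr, Foxa1, Col1a1, Col3a1, Pdgfra, Fbln1, Cd68, Lyz2, Adgre1, Csf1r, Itgam and Ptprc were named after their values were seen. The members and lists were chosen with earlier results of these data known. The alternatives were pseudocounts of 0.1 or none, TPM scaling, median centring, 3 other filters, a threshold of 2 and shares of fragments. The computation was tested on simulated data. Scripts ran in Python 3.11.15 with scipy 1.17.1, numpy 2.4.6, matplotlib 3.10.9 and pandas 2.3.3.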

Additional observations from a re-analysis of the deposited data

Results flagged for a closer look

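With 1 library per group, the difference between the labels in the change with baicalin was not tested. For 5 ligands the change had opposite signs under the 2 labels, as it had for 40.6% of the 17787 genes. The change under the label luminal minus that under the label basal, in log2 with 1 FPKM added, was 1.9 for Wnt10a, 1.1 for Wnt11, 0.97 for Wnt10b, 1.26 for Wnt5a and -0.71 for Wnt5b. For Wnt10a, Wnt11, Wnt10b and Wnt5b the counting intervals of both ratios lay on opposite sides of 1. The 40.6% is for sign alone. How many of all genes had such intervals was not counted, so this is no trait particular to the ligands. For Wnt5a the interval under the label basal, 0.563 to 1.04, included 1.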

How the results depend on the processing

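The counts of ligands past the threshold depended on the pseudocount and the threshold, since most ligands are at a few FPKM. They also moved with TPM scaling, where 1 TPM was added. As FPKM summed to 275042 to 296479 in a library, 1 TPM is less than 1 FPKM, so this setting lowers the pseudocount as well. For baicalin against DMSO in the libraries labelled basal, where 1 ligand was past it, the count was 3 with a pseudocount of 0.1, 4 with none, 2 with TPM scaling and 0 with a threshold of 2. The shares of all genes past it, higher and lower, were 6.31% and 7.32%, 9.52% and 11.5%, 3.91% and 5.63%, and 0.231% and 0.742% in that order. In the libraries labelled luminal, where 2 ligands were past it, the count was 7 with a pseudocount of 0.1, 7 with none, 4 with TPM scaling and 0 with a threshold of 2. The shares of all genes there were 5.91% and 5.13%, 8.76% and 8.64%, 4.04% and 3.25%, and 0.337% and 0.259%. Between the labels, a threshold of 2 left 2 ligands with DMSO and 4 with baicalin. Of all genes it left 1.04% higher and 0.843% lower with DMSO, and 1.36% and 0.332% with baicalin. Median centring and the 3 other filters kept each count within 1.5 times of the reported one. Of 160 recomputed log2 values of the 10 ligands over the 4 comparisons, 160 kept their sign. This was largely fixed in advance, since a pseudocount cannot change a sign and median centring moved the values little. Of the 160, 44 moved by at least the distance from the middle of the counting interval to its end, in log2. That interval belongs to the ratio without the 1 FPKM added. As shares of fragments rather than FPKM, Wnt7b made up 72.8%, 69.2%, 16.3% and 12.8% and Wnt5a 1.73%, 1.15%, 49.8% and 56.5% of the ligand sum, in the order basal DMSO, basal baicalin, luminal DMSO, luminal baicalin. Depth limits Wnt6 in all libraries, and Wnt7a in the library labelled luminal with DMSO. The spread between cultures is unknown, so no difference here is shown to exceed it.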
